A study of Mus musculus with 12 samples.

Results

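The comparison of RISDD with SDD asked what changed in the RNA of mouse embryonic fibroblasts on the way to induced motor neurons when an active HRAS was placed ahead of an internal ribosome entry site (IRES) and a dominant-negative p53 fragment. It rests on 6 of the 11 libraries analysed, 3 of RISDD and 3 of SDD, chosen by the library headings and lettered A, B and C. All cells were primary fibroblasts of Hb9::GFP mice, whose reporter marks motor neurons. All were infected with a retrovirus for NIL, the factors Ngn2, Isl1 and Lhx3 joined by self-cleaving peptides. SDD cells also received p53DD, the dominant-negative p53 fragment, fused to a SNAP tag. RISDD cells received HRAS(G12V), a constitutively active form, followed by an IRES and the same SNAP-p53DD. Both groups were moved on day 3 to a neuronal medium, N3, with BDNF, GDNF, CNTF and FGF and with RepSox, which blocks the kinase of the TGF-beta receptor, and both were sorted on day 4 as SNAP-positive cells. Cells of another group, called NIL, had neither p53DD nor RepSox and were sorted only as live single cells. The SDDIR group carried SDD ahead of the IRES and HRAS(G12V) behind it, with the same medium and sort. RNA was polyA-selected from sorted pools, and the labels do not say whether A, B and C were separate cultures, so p-values measure the spread between these libraries, which may be technical.

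RAS proteins are membrane switches that, when bound to GTP, recruit RAF kinases and start the cascade through MEK to ERK. Active ERK phosphorylates transcription factors of the ETS and AP-1 families, and cells answer with phosphatases and Sprouty proteins that damp the cascade. p53DD blocks p53 by forming inactive mixed oligomers with it, which removes a brake on the division of cells under oncogene stress. A gene ahead of an IRES is usually translated more strongly than one behind it. RISDD differed from SDD in carrying HRAS and also in having p53DD behind the IRES, and the effects of these 2 changes cannot be told apart here.

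The values below are the deposited normalized counts. A pair of numbers joined by ± is a mean and its SD over 3 libraries, or, for a log2 difference, the difference of RISDD minus SDD on log2(value + 1) and its standard error. The SDD libraries A, B and C held 16200861, 18877676 and 29815073 reads and the RISDD libraries 14918283, 18730203 and 23385212. Mitochondrially encoded genes took 2.60% to 2.94% of reads in SDD and 3.35% to 4.04% in RISDD. In a principal component analysis of these 6 libraries, the first component held 83.9% of the variance, with SDD between -99.6 and -79.6 and RISDD between 87.0 and 90.2. NIL C stood apart from all other libraries, with 0.537% mitochondrial reads. It entered the fit only through the shared estimate of spread. The conversion factors did not pass the test: Neurog2 (-0.26 ± 0.34, adjusted p = 0.577), Isl1 (-0.25 ± 0.18, adjusted p = 0.298) and Lhx3 (-0.23 ± 0.31, adjusted p = 0.599). All 3 passed as lower with array weights (differences of -0.32, -0.31 and -0.30), and Neurog2 with only SDD and RISDD fitted. Trp53, to which reads of p53DD can map, was at 32346, 40363 and 40127 in the SDD libraries and 43128, 44579 and 46185 in the RISDD libraries and at a mean of 3201 in NIL. Its difference of 0.25 ± 0.14 did not pass (adjusted p = 0.178), but passed as higher in 2 of 25 alternative runs. Hras, at 829.9, 905 and 981 in the SDD libraries and 1234, 1093 and 1088 in the RISDD libraries, did not pass either (0.33 ± 0.23, adjusted p = 0.285), but passed as higher without NIL C and under 4 other settings (adjusted p of 0.00593 to 0.0395). Whether reads of the delivered HRAS can count toward the mouse Hras gene is not stated in the labels or files, so it does not check the labels.

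Of 14207 genes tested, 6046 (42.6%) differed between RISDD and SDD at an adjusted p under 0.05. Of these, 2840 were higher in RISDD (20.0%) and 3206 lower (22.6%). A change of at least 2-fold was called for 1424 genes higher (10.0%) and 2166 lower (15.2%). The median difference over all tested genes was 0.02. A correction for GC content moved this median to 0.13 and the split to 4696 higher and 3373 lower, so 58.2% of the changed genes were higher with it, against 47.0% without. Leaving out NIL C raised the number of changed genes to 8983. Since changes were so frequent, each count of list members below is to be read against 20.0% higher and 22.6% lower. In pools of sorted cells, fewer cells of a type and less RNA per cell cannot be told apart.

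**Figure D1:**
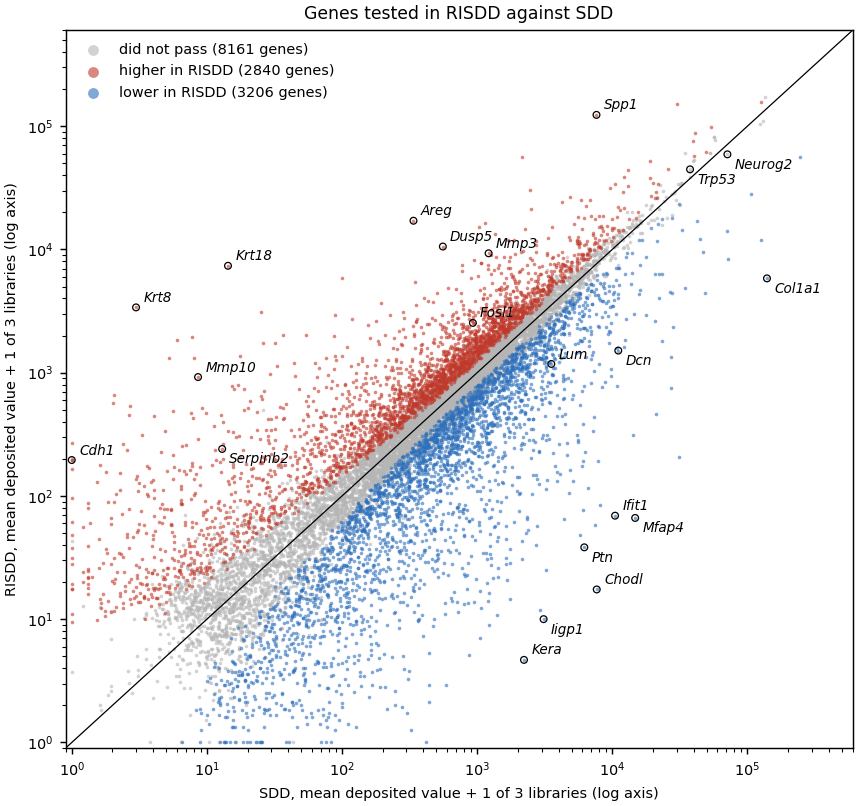
Mean expression of every tested gene in SDD (x axis) and RISDD (y axis), both as the mean normalized value of 3 libraries plus 1 on a log axis. The 2840 genes higher and 3206 genes lower in RISDD lie on either side of the diagonal, with Krt8 and Krt18 far above it and Kera and Chodl far below.

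Keratins of simple epithelia were among the largest rises. The keratins Krt8 and Krt18 pair into the filaments of these cells. Krt8 was at 0, 2.90 and 3.07 in the SDD libraries and 4070.3, 3934 and 2153 in the RISDD libraries, and Krt18 at 13.5, 20.3 and 6.14 in the SDD libraries and 8402, 7632 and 6064 in the RISDD libraries. Both were near absent from every SDD library and abundant in every RISDD library. Their log2 differences were 10.34 ± 0.56 (adjusted p = 4.03e-07) and 9.13 ± 0.40 (adjusted p = 1.37e-07). Without SDD A, the library with no Krt8 read, the difference of Krt8 was 9.67. All 5 tested members of a list of simple-epithelium keratins were higher, of which 1, Krt20, reached the minimum for testing only through RISDD. Krt19, also of simple epithelia, stood at 0, 2.90 and 4.30 in SDD and 42.1, 55.6 and 75.1 in RISDD, a difference of 4.38 ± 0.69 (adjusted p = 5.16e-04), or 3.65 without SDD A. Krt20, an intestinal and urothelial keratin, had no reads in SDD and was at 183, 211 and 193 in RISDD, at least 72.3-fold higher against a floor of 3 reads per library. Krt6a, of stressed and wounded epidermis, likewise rose from 0 to 161, 246 and 402, at least 99.4-fold. Krt6a, too, reached the minimum only through RISDD. Krt7 passed at very low values (2.47 ± 1.31 in SDD and 9.01 ± 1.13 in RISDD) and did not pass without SDD B or any RISDD library (adjusted p up to 0.104). Keratin genes resemble each other in sequence, so reads may be split among them.

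Many junction genes were also higher. Of 25 listed, 20 were tested, 14 of them higher and 2 lower. Of those tested, 8, Cdh1, Cldn4, Dsg2 and Pkp1 among them, reached the minimum only through RISDD and could be tested only because they are high there. Among the other 12, 6 were higher and 2 lower. The 2 lower calls became 1 without SDD A or RISDD C and 1 with a minimum value of 50. The 14 higher calls became 9 with a minimum value of 50. Desmoglein 2, Dsg2, was at 7.89, 6.77 and 5.53 in the SDD libraries and 2398, 1599.8 and 1823 in the RISDD libraries. Its partner desmocollin 2, Dsc2, was at 16.9, 19.3 and 35.6 in the SDD libraries and 683, 650.2 and 617 in the RISDD libraries. Every RISDD library lay far above every SDD library for both, with differences of 7.96 ± 0.58 (adjusted p = 2.94e-06) and 4.78 ± 0.57 (adjusted p = 7.85e-05). Desmoplakin, Dsp, which ties desmosomes to keratin filaments, was at 45.1 ± 9.93 in SDD and 164 ± 49.04 in RISDD, a difference of 1.81 ± 0.25 (adjusted p = 1.83e-04). The plakophilin Pkp1 was at 0, 1.93 and 1.84 in SDD and 49.5, 178 and 232 in RISDD, a difference of 5.98 ± 0.85 (adjusted p = 2.41e-04) that became 6.65 without RISDD A. E-cadherin, Cdh1, which marks epithelial identity, had no reads in SDD and was at 71.7, 314 and 198 in RISDD, at least 71.8-fold higher. Claudin 4, Cldn4, had no reads in SDD and reached only 34.6, 20.2 and 26.1 in RISDD, at least 9.96-fold.

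Other genes among the 15 largest rises had varied roles. Ceacam1, an adhesion molecule, stood at 6.77, 43.5 and 22.7 in SDD and 2602, 3277 and 3514 in RISDD. Plet1, a placental and hair follicle surface protein, stood at 1.13, 2.90 and 8.60 in SDD and 1436, 1088 and 1427 in RISDD. The kallikrein protease Klk7 stood at 0, 1.93 and 1.23 in SDD and 249.8, 811 and 907 in RISDD. All RISDD libraries were above all SDD libraries for these, though Ceacam1 in SDD and Klk7 in RISDD varied several-fold between libraries. Their differences were 8.25 ± 0.52 (adjusted p = 1.12e-06) for Plet1, 7.27 ± 0.60 (adjusted p = 6.62e-06) for Ceacam1, or 6.58 without SDD A, and 8.25 ± 0.72 (adjusted p = 9.32e-06) for Klk7, or 8.84 without RISDD A. The protocadherin Pcdh8 (8.29 ± 0.45, adjusted p = 4.50e-07), the sodium/proton exchanger Slc9a2 (7.43 ± 0.67, adjusted p = 1.21e-05) and Arap3, a GTPase-activating protein (7.39 ± 0.44, adjusted p = 8.03e-07), were close to absent from SDD and had means of 1853, 449 and 1321 in RISDD. Ccr1, a chemokine receptor of leukocytes, was at 0, 0 and 3.07 in SDD and 407, 639 and 642 in RISDD (8.43 ± 0.66, adjusted p = 4.51e-06, and 9.11 without SDD C). Fezf1, a forebrain transcription factor, was at 2.26, 2.90 and 0 in SDD and 633, 508 and 454 in RISDD (7.82 ± 0.68, adjusted p = 9.21e-06, and 7.21 without SDD C). Klk7 and Fezf1 reached the minimum for testing only through RISDD and could be tested only because they are high there. The prolactin-family gene Prl2c3 had no reads in SDD and was at 75.4, 288 and 129 in RISDD, at least 60.6-fold higher, and it has near-identical copies among which reads can be split.

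Among 11 tested regulators of the transition between epithelial and mesenchymal states, 6 were lower and 3 higher, 2 of which were tested only through their RISDD values, and the 3 higher calls became 1 with a minimum value of 50. The list also holds regulators of the epithelial state, and of the 3 higher genes only Foxc2 is not one of them. Snai1, a repressor of Cdh1, was at 1136, 939.9 and 610.0 in SDD and 184, 205 and 175 in RISDD. Its relative Snai2 was at 783, 752 and 571 in SDD and 176, 159 and 148 in RISDD. No RISDD library reached the lowest SDD library for either gene. They fell by 2.20 ± 0.33 and 2.11 ± 0.20 on the log2 scale (adjusted p = 3.27e-04 and 1.46e-05). Twist1 (-1.27 ± 0.26, adjusted p = 0.00256) and Tcf4 (-1.18 ± 0.14, adjusted p = 6.52e-05) were also lower, Foxc2 rose (1.57 ± 0.37, adjusted p = 0.00568), and Prrx1, a limb mesenchyme factor, was at 9625 ± 478 in SDD and 8165 ± 521 in RISDD and did not pass (-0.24 ± 0.19, adjusted p = 0.341). Prrx1 passed as lower in 4 of 25 alternative runs.

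Negative feedback genes of ERK moved both ways. Of 16 tested, 8 were higher and 3 lower. The phosphatase Dusp5, which holds ERK in the nucleus and removes its activating phosphates, was at 519.8, 633 and 516 in the SDD libraries and 10551, 10819 and 10296 in the RISDD libraries. The RISDD libraries were more than 10 times any SDD library, a difference of 4.25 ± 0.17 (adjusted p = 9.18e-08). Dusp4, another nuclear phosphatase, was at 1049, 905 and 766 in SDD and 6018, 5580 and 5995 in RISDD, a difference of 2.70 ± 0.19 (adjusted p = 2.25e-06). Dusp6, the cytoplasmic phosphatase of ERK, was at 3603 ± 325 in SDD and 5004 ± 172 in RISDD, a smaller rise (0.48 ± 0.11, adjusted p = 0.00540). Dusp9 rose by 3.67 ± 0.27 (adjusted p = 2.94e-06). Of the Sprouty and Spred proteins, which act on RAS and RAF, Spry4 was at 1108, 1204 and 875 in SDD and 7418, 7743 and 8014 in RISDD and Spry1 at 2107, 1382 and 1573 in SDD and 601, 531 and 449 in RISDD. They moved in opposite directions, by 2.87 ± 0.16 (adjusted p = 4.61e-07) and -1.66 ± 0.21 (adjusted p = 1.22e-04), with no overlap between the groups. Spred3 (3.06 ± 0.15, adjusted p = 2.48e-07) and Spred2 (0.56 ± 0.11, adjusted p = 0.00192) rose, while Spry2 at 5851 ± 334 in SDD and 5293 ± 368 in RISDD and Spred1 at 6521 ± 587 in SDD and 9395 ± 871 in RISDD did not pass (adjusted p = 0.426 and 0.103). Spred1 passed as higher in 6 of 25 alternative runs. Dusp1 (-1.67 ± 0.20, adjusted p = 6.56e-05) and Dusp8 (-1.47 ± 0.24, adjusted p = 6.87e-04), phosphatases that act mainly on p38 and JNK, fell.

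Immediate early genes, which ERK switches on within minutes of a stimulus, were mostly lower in RISDD. Of 24 tested, 13 were lower and 2 higher, with a median of -0.91. Fos was at 8298, 4212 and 5472 in the SDD libraries and 711, 663 and 758 in the RISDD libraries, and Egr1 at 30219, 31525 and 35843 in the SDD libraries and 13459, 13833 and 15926 in the RISDD libraries. Both were lower in every RISDD library than in any SDD library, with differences of -3.02 ± 0.24 (adjusted p = 5.41e-06) and -1.18 ± 0.14 (adjusted p = 8.95e-05). Egr2 (-3.04 ± 0.23), Fosb (-2.20 ± 0.26), Btg2 (-2.16 ± 0.21), Nr4a3 (-2.04 ± 0.26) and Jun (-1.01 ± 0.19) were lower too, with adjusted p-values up to 0.00151. Nr4a1 (-0.95 ± 0.29, adjusted p = 0.0219) did not pass without SDD A, RISDD B or RISDD C (adjusted p up to 0.0949). The 2 that rose were Fosl1, the AP-1 subunit FRA1, and Phlda1. Fosl1 was at 375, 1349.9 and 1061 in SDD and 2428, 2449 and 2724 in RISDD, and Phlda1 at 1123, 1522 and 949 in SDD and 6635, 6799.6 and 7437 in RISDD. Neither overlapped between the groups, and the differences were 1.64 ± 0.45 (adjusted p = 0.0139) and 2.56 ± 0.22 (adjusted p = 7.71e-06).

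The ETS factors showed a smaller shift, with 5 of 11 higher and 1 lower. The 5 higher calls became 8 with GC correction, and the 1 lower call became 2 without NIL B or NIL C and 2 under 9 other settings. Etv4, a PEA3 factor and target of ERK, was at 406, 557 and 466 in SDD and 1823, 1697 and 1726 in RISDD, about the same multiple in every RISDD library (1.89 ± 0.15, adjusted p = 4.46e-06). Ets1, Ets2 and Elk3 rose by 0.67 ± 0.16, 0.91 ± 0.19 and 0.82 ± 0.15, with adjusted p-values of 0.00732, 0.00296 and 0.00115. Etv5 at 1659 ± 132 in SDD and 1798 ± 77.2 in RISDD and Etv1 at 1167 ± 256 in SDD and 686 ± 25.1 in RISDD did not pass (adjusted p = 0.429 and 0.0585). Etv1 passed as lower in 10 of 25 alternative runs. In the cascade itself, 7 of 25 tested genes were higher and 3 lower, and the 7 higher calls became 11 to 12 under 4 other settings, and the 3 lower calls became 6 with array weights. The largest rise was that of the exchange factor Rasgrp3, which switches RAS on, at 11.3, 2.90 and 5.53 in SDD and 90.3, 99.1 and 91.7 in RISDD (3.80 ± 0.91, adjusted p = 0.00637). GTPase activators, which switch RAS off, rose too: Rasa2 was at 375, 526 and 421 in SDD and 2569, 2457 and 2378 in RISDD and Rasa1 at 1969.9, 1933 and 1832 in SDD and 9200.5, 9497 and 8709 in RISDD. Their differences were 2.50 ± 0.41 (adjusted p = 6.12e-04) and 2.26 ± 0.36 (adjusted p = 5.82e-04), and Rasa3 rose by 1.16 ± 0.20 (adjusted p = 8.88e-04). Nras rose by 0.97 ± 0.18 (adjusted p = 0.00152), while Mras fell by 2.35 ± 0.14 (adjusted p = 7.23e-07) and the RAS GTPase activator Dab2ip by 0.71 ± 0.19 (adjusted p = 0.0118).

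**Figure D2:**
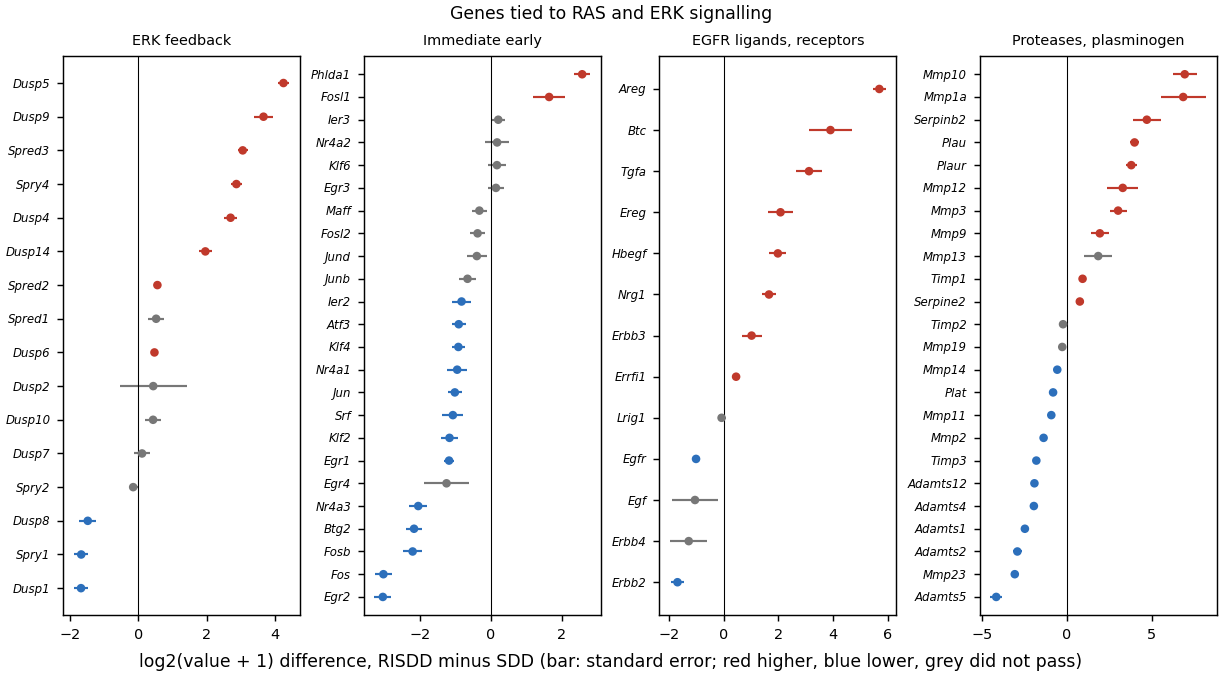
Difference of RISDD minus SDD in log2(value + 1), with standard errors, for members of the ERK feedback, immediate early gene, EGFR and matrix protease lists, in red for genes higher, blue for genes lower and grey for genes that did not pass. Dusp5, Spry4, Areg and Mmp10 lie on the right and Fos, Egr2 and Spry1 on the left.

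The ligands of the EGF receptor family, which are released by proteases from the cell surface, were higher for 6 of 7 tested, and 2 receptors fell. Of 13 tested ligands, receptors and inhibitors, 8 were higher and 2 lower, with a median of 1.02. Amphiregulin, Areg, was at 231, 377 and 402 in the SDD libraries and 16220, 16910 and 18136 in the RISDD libraries, and epiregulin, Ereg, at 1096, 2583 and 1589.9 in the SDD libraries and 6165, 7437 and 7409.7 in the RISDD libraries. All RISDD libraries exceeded all SDD libraries, by 5.70 ± 0.23 (adjusted p = 9.18e-08) and 2.08 ± 0.46 (adjusted p = 0.00390). Heparin-binding EGF, Hbegf, was at 371, 822 and 546 in SDD and 2142, 2301 and 2091 in RISDD (1.98 ± 0.31, adjusted p = 4.68e-04). Betacellulin, Btc (3.91 ± 0.77, adjusted p = 0.00214), and Tgfa (3.12 ± 0.46, adjusted p = 3.27e-04) rose from low values to means of 556 and 154. The receptor Erbb3 passed at low values (1.02 ± 0.37, adjusted p = 0.0456), but did not pass without any SDD library, either SDDIR library or any RISDD library, or with no filter or a replicate block (adjusted p up to 0.157). The receptors Egfr and Erbb2 fell by 1.02 ± 0.15 and 1.70 ± 0.23 (adjusted p = 3.40e-04 and 2.04e-04).

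Among 18 other growth factors and cytokine ligands, 7 were higher and 5 lower. The minimum was reached only through RISDD by 1 gene, and among the other 17, 6 were higher and 5 lower. Vegfa, which drives vessel growth, was at 1107 ± 136 in SDD and 2706 ± 300.4 in RISDD and rose (1.29 ± 0.21, adjusted p = 6.59e-04). Fgf2, Bdnf and Pdgfa rose by 1.79 ± 0.29, 0.998 ± 0.21 and 0.82 ± 0.24 (adjusted p = 5.52e-04, 0.00307 and 0.0190). Csf1, the growth factor of macrophages, was at 3946, 4869 and 5032 in SDD and 199, 231 and 208 in RISDD. It fell by 4.43 ± 0.17 (adjusted p = 6.86e-08), the largest fall of this list, ahead of the fetal growth factor Igf2 (-1.86 ± 0.28, adjusted p = 3.25e-04) and Gdnf (-1.24 ± 0.28, adjusted p = 0.00465). Igf1 at 66.5 ± 4.19 in SDD and 77.1 ± 16.7 in RISDD and Lif at 218 ± 142 in SDD and 299 ± 63.2 in RISDD did not pass (adjusted p = 0.759 and 0.344). Of 17 receptor tyrosine kinases, 10 were lower. The PDGF receptors that mark fibroblasts were at 7316, 6047 and 7325 in SDD and 2210.1, 1967 and 2816 in RISDD for Pdgfra and at 3229, 3037 and 2621 in SDD and 638, 602 and 777 in RISDD for Pdgfrb. RISDD lay below SDD throughout for both (-1.58 ± 0.15, adjusted p = 1.74e-05, and -2.14 ± 0.20, adjusted p = 1.25e-05). Epha5 (-2.74 ± 0.30), Epha4 (-2.51 ± 0.33), Fgfr2 (-2.42 ± 0.17) and Ephb2 (-2.27 ± 0.20) were also lower, with adjusted p-values up to 1.40e-04. The ephrin receptor Epha2, by contrast, was at 349 ± 151 in SDD and 3532 ± 109 in RISDD and rose (3.43 ± 0.34, adjusted p = 2.07e-05). The 2 higher calls became 1 without SDD B, SDD C, RISDD A, RISDD B or RISDD C and 1 with a minimum value of 50. Pdgfa did not pass without SDD A, SDD C, RISDD B or RISDD C (adjusted p up to 0.0760).

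Enzymes that cut the matrix and activate plasminogen split, with 10 of 25 tested genes higher and 11 lower. The minimum was reached only through RISDD by 1 gene, and among the other 24, 9 were higher and 11 lower. The stromelysins Mmp3 and Mmp10 and the collagenase Mmp1a belong to 1 gene cluster on mouse chromosome 9. Mmp3 was at 803, 1789.9 and 1049 in the SDD libraries and 8216, 11081 and 8616 in the RISDD libraries, Mmp10 at 2.26, 12.6 and 7.99 in the SDD libraries and 785, 1222 and 756 in the RISDD libraries and Mmp1a at 0, 2.90 and 1.23 in the SDD libraries and 129, 427 and 236 in the RISDD libraries. Every RISDD library was above every SDD library for these 3 genes, with differences of 3.01 ± 0.50 (adjusted p = 7.05e-04), 6.94 ± 0.72 (adjusted p = 2.91e-05) and 6.84 ± 1.33 (adjusted p = 0.00192), and of 6.35 for Mmp10 without SDD A. Urokinase, Plau, was at 304, 386 and 348 in SDD and 6012, 5596 and 4772 in RISDD, and its receptor Plaur at 141, 305 and 225 in SDD and 2827, 2997 and 3026 in RISDD. They rose together, by 3.98 ± 0.26 (adjusted p = 1.52e-06) and 3.78 ± 0.34 (adjusted p = 1.10e-05). Serpinb2, an inhibitor of urokinase, was at 1.13, 21.3 and 13.5 in SDD and 172, 348 and 199 in RISDD (4.70 ± 0.81, adjusted p = 8.64e-04, and 3.67 without SDD A and 5.37 without SDD B). Mmp9 was higher (1.93 ± 0.54, adjusted p = 0.0142) but did not pass without SDD A or RISDD B (adjusted p up to 0.0649). The collagenase Mmp13 overlapped between the groups, at 25.9, 125 and 52.2 in SDD and 105, 418 and 183 in RISDD (adjusted p = 0.0951). Mmp13 passed as higher in 7 of 25 alternative runs. Lower genes included Adamts5 (-4.18 ± 0.34, adjusted p = 6.31e-06) and Mmp23 (-3.08 ± 0.23, adjusted p = 3.41e-06), the procollagen-processing enzyme Adamts2 (-2.93 ± 0.25, adjusted p = 7.35e-06), Adamts1 (-2.49 ± 0.23, adjusted p = 1.19e-05) and the inhibitor Timp3 (-1.81 ± 0.19, adjusted p = 3.28e-05).

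AP-1, the FOS and JUN dimer, binds the letters TGACTCA, or TGAGTCA on the other strand. RefSeq promoter sequences of mouse build GRCm38.p6 were searched in the 250 bases before each gene's start, on both strands. The promoters of 3 raised genes are shown because each holds 1 such match, in capitals, close to the start.
Mmp10: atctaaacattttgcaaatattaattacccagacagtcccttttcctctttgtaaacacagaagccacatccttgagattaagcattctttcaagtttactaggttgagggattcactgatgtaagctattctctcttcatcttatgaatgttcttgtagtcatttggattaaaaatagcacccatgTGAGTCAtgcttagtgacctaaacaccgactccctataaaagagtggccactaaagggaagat
Mmp1a: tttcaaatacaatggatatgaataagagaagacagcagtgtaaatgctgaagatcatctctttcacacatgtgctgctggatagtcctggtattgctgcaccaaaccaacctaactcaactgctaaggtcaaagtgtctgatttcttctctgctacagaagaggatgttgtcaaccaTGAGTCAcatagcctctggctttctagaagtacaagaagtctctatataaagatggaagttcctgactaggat
Plaur: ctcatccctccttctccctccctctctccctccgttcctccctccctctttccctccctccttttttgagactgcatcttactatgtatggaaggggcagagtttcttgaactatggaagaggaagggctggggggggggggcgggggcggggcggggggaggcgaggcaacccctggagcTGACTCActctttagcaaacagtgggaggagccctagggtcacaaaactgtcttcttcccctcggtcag
They lie at chr9:7502092-7502341, chr9:7463891-7464140 and chr7:24462233-24462482, all on the plus strand, and the matches begin 63, 73 and 69 bases before the start. A match was found in 5 of 8 matched promoters of the higher genes of this list and in 0 of 7 of the lower genes, a division made after their values were seen. In other lists, 6 of 41 promoters of lower interferon genes held one (14.6%), 2 of 14 of higher cholesterol synthesis genes (14.3%) and 1 of 15 of lower collagen genes (6.67%). None of the 5, 4 and 4 promoters of higher ERK feedback, EGFR and keratin genes held one, nor any of 21 of higher MYC and ribosome biogenesis genes or 11 of lower MHC class I genes. Over all tested genes with a promoter sequence, 4.20% of 10692 held one, and over all 32851 promoters 4.46%. A match describes the letters and is not a binding site.

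Integrins and laminins moved both ways, with 9 of 25 higher and 11 lower. The minimum was reached only through RISDD by 1 gene, and among the other 24, 8 were higher and 11 lower. The laminin receptor subunit Itga6, typical of epithelia, was at 1179, 3438 and 2834 in SDD and 19915, 21099 and 22886 in RISDD, and Itgb3, a subunit of the vitronectin receptor, at 118, 195 and 151 in SDD and 2402, 2285 and 2574 in RISDD. The RISDD values were above the SDD values in every library, by 3.24 ± 0.34 (adjusted p = 3.52e-05) and 3.99 ± 0.23 (adjusted p = 5.99e-07). Itga3 (2.97 ± 0.23, adjusted p = 3.86e-06), Itga2 (2.94 ± 0.58, adjusted p = 0.00205, and 2.17 without SDD A) and the epidermal laminin chain Lamb3 (4.22 ± 0.47, adjusted p = 4.93e-05) rose as well. The mesenchymal laminin chains Lama2 (-3.03 ± 0.14, adjusted p = 2.10e-07) and Lama4 (-2.85 ± 0.15, adjusted p = 3.68e-07) and the integrins Itga7 (-2.41 ± 0.26, adjusted p = 4.21e-05) and Itga8 (-1.91 ± 0.32, adjusted p = 8.00e-04) fell.

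The fibroblast matrix was broadly lower. Of 24 collagen genes, 19 were lower and 1 higher, with a median of -2.18. Type I collagen is the main fibre of connective tissue, and Col1a1 was at 156760, 120210 and 141640 in the SDD libraries and 5463, 6045 and 5956 in the RISDD libraries. Every SDD library was more than 10 times any RISDD library, a difference of -4.58 ± 0.26 (adjusted p = 5.29e-07). Col1a2, the other chain of type I collagen, was at 271170, 226240 and 236380 in SDD and 55011, 56878 and 56053 in RISDD and fell less, by 2.12 ± 0.16 (adjusted p = 3.06e-06). Col3a1 (-3.39 ± 0.16), Col14a1 (-7.02 ± 0.20), Col8a1 (-6.59 ± 0.32), Col12a1 (-5.52 ± 0.20) and the basement membrane chain Col4a1 (-1.20 ± 0.20) fell with adjusted p-values up to 6.80e-04. Col18a1, a basement membrane collagen, was the 1 that rose, at 10389, 15064 and 13466 in SDD and 33590, 33279 and 31913 in RISDD (1.36 ± 0.24, adjusted p = 9.94e-04).

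All 9 tested small leucine-rich proteoglycans, which organise collagen fibrils, were lower, with a median of -3.77. Keratocan, Kera, had the largest fall of all genes that met the naming rule, at 3056, 1339 and 2266 in the SDD libraries and 1.24, 5.06 and 4.74 in the RISDD libraries. Decorin, Dcn, was at 14154, 6063 and 13010 in the SDD libraries and 1496, 1419 and 1616 in the RISDD libraries. Kera was near absent from RISDD, while Dcn kept part of its level there, below every SDD library. The differences were -8.94 ± 0.58 (adjusted p = 1.30e-06) and -2.78 ± 0.32 (adjusted p = 5.50e-05). Lum fell by 1.62 ± 0.33 (adjusted p = 0.00252), and Fmod (-5.51 ± 0.33, adjusted p = 7.39e-07), Ogn (-5.44 ± 0.63, adjusted p = 6.52e-05) and Prelp (-4.85 ± 0.52, adjusted p = 3.86e-05) fell more. Of 24 genes of elastic fibres and crosslinking, 19 were lower. The microfibril gene Mfap4 was at 16142, 9826 and 18323 in SDD and 80.4, 58.7 and 56.9 in RISDD, and lysyl oxidase, Lox, which crosslinks collagen and elastin, at 9131, 7263 and 7021 in SDD and 168, 226 and 176 in RISDD. Neither group overlapped the other, and both falls were large (-7.77 ± 0.40, adjusted p = 2.75e-07, and -5.36 ± 0.14, adjusted p = 1.79e-08). Elastin, Eln (-5.28 ± 0.31, adjusted p = 7.26e-07), and Fbln5 (-4.27 ± 0.17, adjusted p = 9.18e-08) fell too, and Loxl4 rose by 0.91 ± 0.18 (adjusted p = 0.00185). The 1 higher call became 2 without NIL C and 2 to 3 under 4 other settings.

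Matricellular proteins, which sit in the matrix and signal to cells, moved both ways. Of 16 tested, 11 were lower and 4 higher. Osteopontin, Spp1, was at 5479, 7906 and 9525 in the SDD libraries and 110740, 126380 and 133290 in the RISDD libraries, and tenascin C, Tnc, at 9849, 14628 and 11276 in the SDD libraries and 29694, 31445 and 25813 in the RISDD libraries. Every RISDD library held more than 10 times the Spp1 value of any SDD library, and Tnc did not overlap either (4.05 ± 0.23, adjusted p = 5.23e-07, and 1.30 ± 0.17, adjusted p = 1.26e-04). Ccn3 (2.35 ± 0.21, adjusted p = 1.23e-05) and the hyaluronan synthase Has2 (1.55 ± 0.28, adjusted p = 0.00109) rose. Ccn1 (-3.46 ± 0.17, adjusted p = 2.11e-07), Ccn2 (-3.66 ± 0.26, adjusted p = 2.65e-06) and Ccn4 (-4.06 ± 0.16, adjusted p = 8.70e-08), of the same family as Ccn3, fell. Periostin, Postn, was at 81128, 71544 and 64231 in SDD and 8253, 8205 and 8453 in RISDD (-3.12 ± 0.24, adjusted p = 4.34e-06). Of 20 fibroblast markers, 17 were lower, among them Thy1 (-3.04 ± 0.23, adjusted p = 3.54e-06), and their summed values were 746900 to 880000 in SDD and 214400 to 230100 in RISDD. Several of these markers, such as Col1a1, Dcn and Postn, were already counted in the matrix lists. The filament gene Vim was the only marker that rose, at 38681, 39982 and 43114 in SDD and 87698, 91904 and 85723 in RISDD (1.12 ± 0.20, adjusted p = 0.00115), and the 1 higher call became 2 without NIL C and 2 under 6 other settings. Pleiotrophin, Ptn, a matrix-bound growth factor, was at 8348, 4424 and 5848 in SDD and 40.8, 32.4 and 38.7 in RISDD, and tenomodulin, Tnmd, of tendon, at 578, 415 and 324 in SDD and 0, 1.01 and 2.37 in RISDD. Both were close to absent from RISDD (-7.30 ± 0.21, adjusted p = 1.91e-08, and -7.82 ± 0.49, adjusted p = 1.01e-06).

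Contractile genes and targets of TGF-beta were mixed in cells that all had RepSox. Of 21 tested, 9 were lower and 3 higher. The 3 higher calls became 1 without SDD A, 6 without NIL C and 5 to 6 under 4 other settings. Smooth muscle actin, Acta2, was at 3039.9, 2476 and 2309 in SDD and 528, 460.1 and 283 in RISDD, and Tagln at 1569.6, 1699.9 and 1533 in SDD and 665, 742 and 301 in RISDD. Both were lower in every RISDD library (-2.66 ± 0.32, adjusted p = 8.36e-05, and -1.59 ± 0.39, adjusted p = 0.00766). Smad6 (-3.08 ± 0.36), Myl9 (-2.48 ± 0.43) and Ltbp3 (-2.46 ± 0.24) fell, with adjusted p-values up to 8.69e-04, and Cnn1 (-2.43 ± 0.66, adjusted p = 0.0129) fell but did not pass without SDD A or RISDD C (adjusted p up to 0.0590). Tgif1 (1.15 ± 0.18, adjusted p = 4.01e-04) and Cnn2 (0.74 ± 0.24, adjusted p = 0.0301) rose. In the BMP list, 7 of 13 were lower and 3 higher. The ligands parted: Bmp4 was at 1757, 1118 and 1396 in SDD and 17.3, 29.3 and 16.6 in RISDD and Bmp2 at 744, 1949 and 1572 in SDD and 6870.4, 7314 and 6896 in RISDD. Bmp4 nearly vanished and Bmp2 rose in every RISDD library (-6.03 ± 0.27, adjusted p = 1.67e-07, and 2.42 ± 0.33, adjusted p = 1.85e-04). The antagonist Grem1 rose (3.03 ± 0.59, adjusted p = 0.00190), while Chrd (-2.98 ± 0.27, adjusted p = 1.12e-05) and Bmper (-3.19 ± 0.37, adjusted p = 5.96e-05) fell and Nog went from 214 to 0.864, with 3 reads in all of RISDD. The target Id3 fell (-1.82 ± 0.30, adjusted p = 7.28e-04), Id2 rose (0.71 ± 0.16, adjusted p = 0.00500) and Id1 at 3670.3 ± 1011 in SDD and 2435 ± 293 in RISDD did not pass (adjusted p = 0.157). Id1 passed as lower in 4 of 25 alternative runs. Cnn2 did not pass without any SDD library, RISDD A or RISDD B (adjusted p up to 0.102).

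WNT genes also moved both ways, 5 of 17 higher and 7 lower. Wnt5a, a non-canonical ligand of mesenchyme, was at 4306 ± 514 in SDD and 901 ± 118 in RISDD and fell (-2.26 ± 0.15, adjusted p = 1.46e-06), and Wnt5b (-4.16 ± 0.32, adjusted p = 3.86e-06), Nkd1 (-1.59 ± 0.27, adjusted p = 7.22e-04) and Frzb (-1.10 ± 0.33, adjusted p = 0.0214) fell. The partners of beta-catenin Tcf7 (2.93 ± 0.42, adjusted p = 2.73e-04) and Lef1 (2.45 ± 0.37, adjusted p = 3.83e-04), the antagonist Dkk2 (2.40 ± 0.20, adjusted p = 8.11e-06) and Wnt9a (1.50 ± 0.21, adjusted p = 2.18e-04) rose. Sfrp2 was at 62.8 ± 18.2 in SDD and 158 ± 32.8 in RISDD and did not pass (adjusted p = 0.0543), but passed as higher in 9 of 25 alternative runs. In the NOTCH list, 5 of 16 were higher and the other 11 did not pass. The ligand Jag2 was at 267, 462 and 426 in SDD and 2453, 2174 and 2378 in RISDD, and the target Hey1 at 72.2, 85.1 and 44.8 in SDD and 334, 421 and 560.4 in RISDD. Both were several-fold higher in every RISDD library (2.63 ± 0.34, adjusted p = 1.20e-04, and 2.70 ± 0.70, adjusted p = 0.00991). Notch3 rose by 0.82 ± 0.23 (adjusted p = 0.0140), and Notch1 (0.70 ± 0.23, adjusted p = 0.0323) did not pass without SDD A, SDD C or any RISDD library (adjusted p up to 0.118). The 5 higher calls became 3 without SDD C or RISDD C. Frzb did not pass without SDD A or RISDD C (adjusted p up to 0.0935). Notch3 did not pass without SDD C or RISDD C (adjusted p up to 0.0650).

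Most genes of the motor neuron program, which Ngn2, Isl1 and Lhx3 are delivered to start, were lower in RISDD. Of 20 tested, 13 were lower and 5 higher, with a median of -1.88. The minimum for testing was reached only through RISDD by 2 of the 20, and among the other 18, 3 were higher and 13 lower. It was reached only through SDD by 1, and among the other 19, 5 were higher and 12 lower. Chodl, a marker of fast motor neurons, was at 12572, 3812 and 6629 in the SDD libraries and 21.02, 10.1 and 18.2 in the RISDD libraries, and Cntn2, an axonal adhesion protein, at 40092, 26918 and 27037 in the SDD libraries and 348, 164 and 111 in the RISDD libraries. Each RISDD library held a small share of the lowest SDD library (-8.67 ± 0.46, adjusted p = 3.42e-07, and -7.37 ± 0.39, adjusted p = 3.82e-07). Mnx1, the gene of the Hb9 reporter, was at 127, 64.8 and 90.3 in the SDD libraries and 14.8, 5.06 and 2.37 in the RISDD libraries, and Isl2, another motor neuron homeobox gene, at 22.6, 23.2 and 11.7 in the SDD libraries and 2.47, 3.03 and 2.37 in the RISDD libraries. The values were low in both groups, and lower in RISDD without overlap (-3.74 ± 0.63, adjusted p = 7.98e-04, with -4.34 without RISDD A, and -2.42 ± 0.53, adjusted p = 0.00381). Peripherin, Prph, fell by 5.89 ± 0.38 (adjusted p = 1.35e-06) and the guidance factor Slit3 by 4.37 ± 0.25 (adjusted p = 5.72e-07). The cholinergic genes Chat, with no reads in any of these 6 libraries, and Slc18a3, at 18.04, 0.967 and 5.53 in SDD and 1.24, 0 and 0 in RISDD, were under the minimum and were not tested. The choline transporter Slc5a7 was higher, at 463, 263 and 259 in SDD and 967, 793 and 842 in RISDD (1.45 ± 0.39, adjusted p = 0.0122), but did not pass without SDD C (adjusted p up to 0.0501). Stmn2, a neuronal tubulin regulator, was higher (1.73 ± 0.52, adjusted p = 0.0219) but did not pass without SDD A, SDD C, RISDD B or RISDD C (adjusted p up to 0.0871). The neuropeptide gene Calcb was at 0, 3.87 and 4.30 in SDD and 164, 174 and 162 in RISDD (5.83 ± 0.63, adjusted p = 3.84e-05, and 5.04 without SDD A). Calcb was also under the minimum of 10 in SDDIR (7.62 and 7.11), so its call carries the limit of genes tested through their RISDD values. Foxp1 rose by 0.40 ± 0.12 (adjusted p = 0.0181). The 5 higher calls became 1 without SDD C, 2 without RISDD B and 3 without RISDD C. Foxp1 did not pass without SDD C, RISDD B or RISDD C (adjusted p up to 0.0821).

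Neuronal transcription factors downstream of Ngn2 parted: 7 of 16 were lower and 3 higher. The minimum was reached only through SDD by 2 of the 16, and among the other 14, 5 were lower and 3 higher. St18 (-4.09 ± 0.36, adjusted p = 9.37e-06), Ebf3 (-2.52 ± 0.17, adjusted p = 1.61e-06) and Nhlh1 (-2.12 ± 0.53, adjusted p = 0.00818) fell. Nhlh2 (1.83 ± 0.28, adjusted p = 4.18e-04) and Sox11 (0.85 ± 0.13, adjusted p = 3.49e-04) rose, and Sox2, a factor of neural progenitors, was at 20.3, 141 and 23.96 in SDD and 1113, 1202 and 1275 in RISDD (4.82 ± 0.80, adjusted p = 7.30e-04, and 5.70 without SDD B). Neurod1 was lower (-1.55 ± 0.52, adjusted p = 0.0333) but did not pass without any SDD library, RISDD B or RISDD C, or with quantile scaling, GC correction or edgeR (adjusted p up to 0.119). Neurod4 was at 2.26, 3.87 and 3.69 in SDD and 2.47, 1.01 and 0.79 in RISDD and was under the minimum.

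Genes of the axonal cytoskeleton did not move together, with 5 of 19 higher and 6 lower. The neuronal tubulin Tubb3 was at 3863, 2791 and 2923 in the SDD libraries and 773, 733 and 526 in the RISDD libraries, and doublecortin, Dcx, at 1062, 872 and 644 in the SDD libraries and 19.8, 16.2 and 1.58 in the RISDD libraries. Both were lower in RISDD without overlap (-2.24 ± 0.31, adjusted p = 2.08e-04, and -6.44 ± 0.82, adjusted p = 1.18e-04, with -5.48 without RISDD C). Gap43, of growing axons, was at 1349, 1034 and 1748 in the SDD libraries and 9016, 8239.6 and 8861 in the RISDD libraries, and it was higher in every RISDD library, by 2.69 ± 0.23 (adjusted p = 7.91e-06). The neurofilament subunits Nefm at 2540.4, 975 and 1293 in SDD and 3980, 3606 and 4066 in RISDD (1.40 ± 0.33, adjusted p = 0.00611) and Nefl at 5326, 1879 and 2677 in SDD and 9411, 8284 and 9173 in RISDD (1.58 ± 0.43, adjusted p = 0.0123) were higher, and Nefl did not pass without SDD B (adjusted p up to 0.0534). Crmp1 rose (2.90 ± 0.21, adjusted p = 2.53e-06), Ina (-3.06 ± 0.39, adjusted p = 1.22e-04) and Tubb2a (-0.85 ± 0.26, adjusted p = 0.0230) fell, and Map2 (-0.71 ± 0.20, adjusted p = 0.0141) did not pass without SDD A or RISDD A (adjusted p up to 0.0599). The 5 higher calls became 3 without SDD B. Among synaptic genes, 17 of 36 were lower and 6 higher, and the 6 higher calls became 3 without SDD A, RISDD A or RISDD C. The minimum was reached only through RISDD by 1 synaptic gene, and among the other 35, 5 were higher and 17 lower. The adhesion gene Chl1 (-6.91 ± 0.34, adjusted p = 2.38e-07) and the vesicle genes Rab3c (-4.52 ± 0.54, adjusted p = 8.03e-05) and Syn2 (-3.11 ± 0.40, adjusted p = 1.33e-04) fell. Snap25, which fuses vesicles with the membrane, was at 59.8, 22.2 and 25.2 in SDD and 395, 409.6 and 459 in RISDD, and the granule protein Scg2 at 33.8, 25.1 and 27.03 in SDD and 445, 345 and 479 in RISDD. Every RISDD library was several times the highest SDD library for both (3.66 ± 0.83, adjusted p = 0.00475, and 3.83 ± 0.33, adjusted p = 9.21e-06). Syn1 (1.62 ± 0.27, adjusted p = 7.79e-04) and Stx1a (0.94 ± 0.28, adjusted p = 0.0204) rose, Syt1 (-0.66 ± 0.21, adjusted p = 0.0260) did not pass without SDD A, SDD B or any RISDD library (adjusted p up to 0.0834), and Chga at 15.1 ± 2.51 in SDD and 17.3 ± 2.20 in RISDD did not pass (adjusted p = 0.765). Stx1a did not pass without SDD A, SDD C, RISDD A or RISDD C (adjusted p up to 0.0702). Tubb2a did not pass without SDD A, SDD C or any RISDD library (adjusted p up to 0.0757).

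Of 14 ion channel genes, 7 were lower and 2 higher, and the 7 lower calls became 4 with a minimum value of 50. The minimum was reached only through RISDD by 1 gene, and among the other 13, 1 was higher and 7 lower. It was reached only through SDD by 1 gene, and among the other 13, 2 were higher and 6 lower. The calcium channel subunit Cacna2d1 fell by 3.29 ± 0.32 (adjusted p = 1.80e-05). The sodium channel Scn9a, of sensory neurons, was at 3.38, 2.90 and 0.614 in SDD and 389.6, 275 and 268 in RISDD (6.67 ± 0.56, adjusted p = 7.24e-06), and the calcium channel Cacna1b rose by 3.56 ± 0.25 (adjusted p = 2.39e-06). Scn3a went from 278 to 0.939, with 3 reads in all of RISDD. Receptors for neurotrophic factors were mostly lower, 6 of 8. The CNTF receptor complex, Cntfr (-2.63 ± 0.33, adjusted p = 1.20e-04), Lifr (-2.56 ± 0.25, adjusted p = 2.14e-05) and Il6st (-1.66 ± 0.11, adjusted p = 1.52e-06), all fell. Gfra3, the artemin receptor, was at 1064, 1038 and 519.7 in SDD and 8.66, 2.02 and 1.58 in RISDD (-7.62 ± 0.48, adjusted p = 1.17e-06, and -8.22 without RISDD A), whereas Gfra2 rose by 2.32 ± 0.36 (adjusted p = 4.55e-04). The cadherin Cdh8 was at 775, 238 and 315 in SDD and 3.71, 2.02 and 0 in RISDD (-7.32 ± 0.59, adjusted p = 5.48e-06, and -6.68 without RISDD C). The serotonin receptor Htr2c went from 325 to 0.263, with 1 read in RISDD, and Shisa3, an antagonist of WNT and FGF signalling, had no reads in RISDD and was at 324, 615 and 319 in SDD, at least 138-fold lower.

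**Figure D3:**
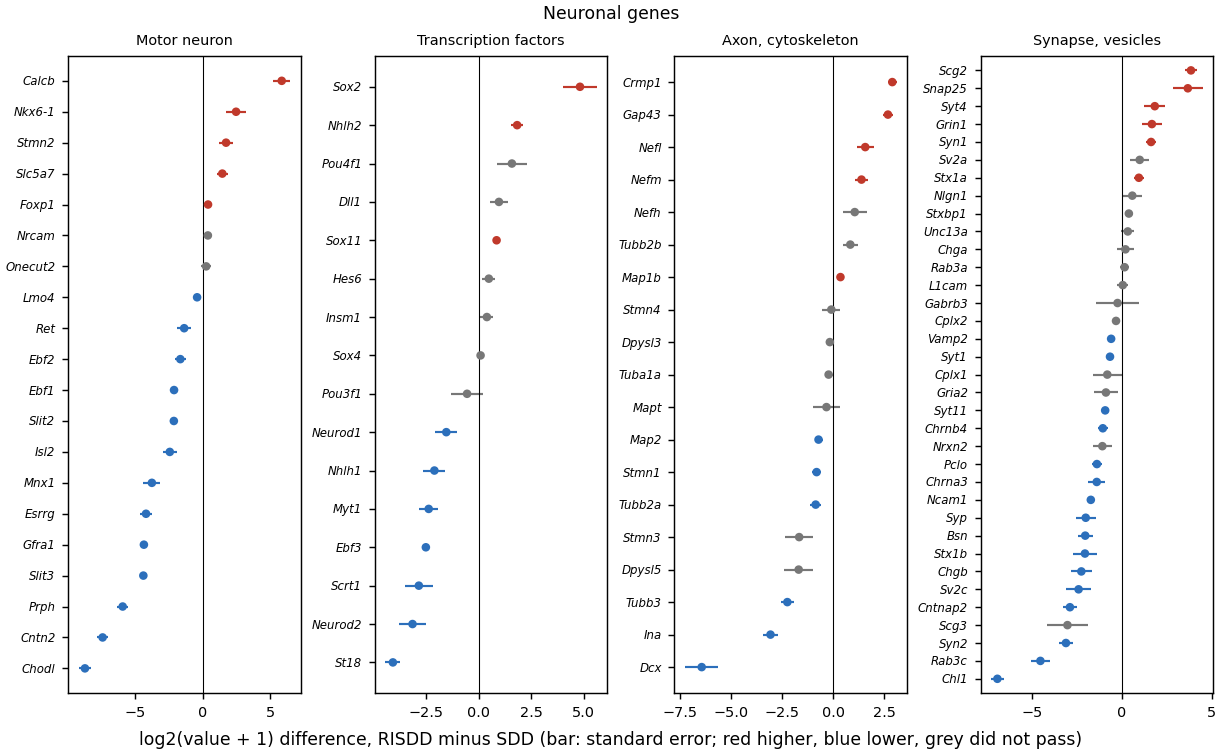
Difference of RISDD minus SDD in log2(value + 1), with standard errors, for motor neuron genes, neuronal transcription factors, axonal and synaptic genes, in red for genes higher, blue for genes lower and grey for genes that did not pass. Chodl, Cntn2, Chl1 and Dcx lie far to the left, and Snap25, Scg2, Gap43 and Sox2 to the right.

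Most genes of the interferon response fell. They are switched on by STAT and IRF factors and carry the cell's defence against viruses. Of 63 tested members, 56 were lower and 1 higher, with a median of -4.26. The minimum was reached only through SDD by 1 member, and among the other 62, 55 were lower and 1 higher. All 28 antiviral effectors and all 12 GTPases were lower, 14 of 19 sensors and factors, and 2 of 4 receptors and ligands. The 1 higher member, Mavs (0.32 ± 0.11, adjusted p = 0.0433), did not pass without any SDD library, either SDDIR library or any RISDD library, or with no filter or a replicate block (adjusted p up to 0.142), and without NIL C 3 members were higher. Promoters of a pair of the genes, Ifit3b chosen after its values were seen, are shown because interferon-responsive elements hold the letters GAAANNGAA, here on the minus strand in capitals, overlapping in the first.
Ifit1: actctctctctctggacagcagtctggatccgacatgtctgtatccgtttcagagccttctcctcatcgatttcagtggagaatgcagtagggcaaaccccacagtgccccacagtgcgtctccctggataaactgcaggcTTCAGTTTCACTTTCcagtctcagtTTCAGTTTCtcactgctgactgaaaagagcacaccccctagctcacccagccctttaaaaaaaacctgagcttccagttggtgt
Ifit3b: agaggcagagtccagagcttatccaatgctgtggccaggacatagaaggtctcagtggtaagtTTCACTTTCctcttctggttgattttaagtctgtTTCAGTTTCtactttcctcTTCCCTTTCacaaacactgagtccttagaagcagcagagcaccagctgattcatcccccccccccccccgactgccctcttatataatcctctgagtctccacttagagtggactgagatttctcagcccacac
They lie at chr19:34640639-34640888 and chr19:34607707-34607956 of GRCm38.p6, on the plus strand, from RefSeq, with 3 matches each and the nearest 84 and 134 bases before the start. Of 41 matched promoters of the lower interferon genes, 21 (51.2%) held a match within 250 bases, against 7.47% of the promoters of all tested genes and 7.13% of all promoters.

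Ifit1, which binds foreign RNA, was at 7190.5, 12615 and 11648 in the SDD libraries and 37.1, 78.9 and 88.5 in the RISDD libraries. Rsad2, or viperin, was at 3905, 8634 and 7144 in the SDD libraries and 56.9, 149.7 and 138 in the RISDD libraries. Isg15, a ubiquitin-like modifier, was at 3029.8, 5945 and 5536 in the SDD libraries and 55.7, 144 and 282 in the RISDD libraries. For all 3 genes every SDD library lay far above every RISDD library. The differences were -7.30 ± 0.45 (adjusted p = 9.53e-07), -5.87 ± 0.61 (adjusted p = 2.89e-05) and -5.13 ± 0.61 (adjusted p = 7.06e-05), with -4.52 for Isg15 without RISDD A. Ifit3 fell by 6.21 ± 0.44 (adjusted p = 2.22e-06), and Ifit3b was at 887, 2326 and 1811 in SDD and 4.95, 30.3 and 24.5 in RISDD (-6.53 ± 0.62, adjusted p = 1.68e-05, and -5.78 without RISDD A). The factors that drive the response fell as well: Stat2 was at 1156, 1877 and 1740.4 in SDD and 129, 144 and 203 in RISDD and Irf7 at 1795, 2939.6 and 2881 in SDD and 54.4, 99.1 and 153 in RISDD. Neither Stat2 nor Irf7 overlapped between the groups (-3.32 ± 0.31, adjusted p = 1.38e-05, and -4.71 ± 0.48, adjusted p = 2.59e-05). The interferon-induced GTPases Iigp1 (-8.36 ± 0.61, adjusted p = 2.94e-06), Gbp6 (-7.09 ± 0.49, adjusted p = 2.15e-06) and Ifi47 (-7.91 ± 0.73, adjusted p = 1.37e-05, and -8.64 without RISDD B) were nearly absent from RISDD, and Tgtp2 went from 301 to 0.749 with 2 reads in RISDD. Ifit and GTPase genes lie in clusters of close copies among which reads can be split. The NIL group, with neither p53DD nor RepSox, had a mean Ifit1 of 1848, below every SDD library.

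Antigen presentation by MHC class I followed the same direction, with all 14 tested genes lower and a median of -2.44. H2-K1, a class I heavy chain, was at 2239, 3732 and 4525 in SDD and 559, 705 and 844 in RISDD, and B2m, its light chain, at 8465, 10505 and 11207 in SDD and 3128, 3589 and 3614 in RISDD. RISDD was below SDD in every library (-2.27 ± 0.37, adjusted p = 6.14e-04, and -1.54 ± 0.29, adjusted p = 0.00164). The immunoproteasome subunits Psmb8 (-5.40 ± 0.50) and Psmb9 (-5.29 ± 0.42), the peptide transporter Tap1 (-4.74 ± 0.38), H2-Q4 (-4.23 ± 0.41) and H2-D1 (-1.69 ± 0.31) fell with adjusted p-values up to 0.00141. Of 10 complement and acute phase genes, 9 were lower. The minimum was reached only through SDD by 1 of the 10, and 8 of the other 9 were lower. Serpina3n, a secreted protease inhibitor, was at 3644, 2209.5 and 2849 in SDD and 12.4, 6.07 and 14.2 in RISDD (-7.98 ± 0.30, adjusted p = 6.86e-08). Serpina3g (-5.61 ± 0.41, adjusted p = 3.15e-06), C1ra (-4.91 ± 0.40, adjusted p = 5.91e-06), Serping1 (-4.66 ± 0.13, adjusted p = 1.79e-08) and C3 (-4.36 ± 0.73, adjusted p = 7.61e-04, and -5.01 without RISDD B) fell, and the Serpina3 genes are close copies. Among 29 chemokines and inflammatory genes, 11 were lower and 4 higher, and the 11 lower calls became 19 with array weights. The minimum was reached only through SDD by 4 of the 29, and among the other 25, 10 were lower and 4 higher. Cxcl10, an interferon target, was at 2498, 10170 and 9635 in SDD and 44.5, 62.7 and 64.8 in RISDD, and Ccl2, which draws monocytes, at 2843, 8727 and 10508 in SDD and 279.5, 721 and 319 in RISDD. Both were far lower in RISDD (-6.76 ± 0.59, adjusted p = 9.21e-06, with -7.43 without SDD A, and -3.99 ± 0.54, adjusted p = 1.75e-04). Cxcl12 (-3.96 ± 0.29, adjusted p = 2.97e-06), Ccl5 (-4.13 ± 0.63, adjusted p = 4.10e-04), Cxcl1 (-1.99 ± 0.38, adjusted p = 0.00157) and Tnfrsf11b, the decoy receptor of RANKL (-6.96 ± 0.30, adjusted p = 1.23e-07), fell. The interleukin 1 antagonist Il1rn was at 34.95, 36.7 and 24.6 in SDD and 466, 2026 and 929 in RISDD, and the alarmin Il33 at 1761, 3498 and 2977 in SDD and 9987, 10970 and 11413 in RISDD. Il1rn and Il33 were higher in every RISDD library (4.88 ± 0.80, adjusted p = 6.26e-04, and 2.03 ± 0.35, adjusted p = 8.57e-04), as was the prostaglandin synthase Ptges (3.20 ± 0.25, adjusted p = 5.17e-06). Il11 was at 3.38, 25.1 and 7.99 in SDD and 182, 266 and 147 in RISDD (4.26 ± 0.59, adjusted p = 2.03e-04, and 3.66 and 4.95 without SDD A and SDD B). Il6 at 31.4 ± 3.74 in SDD and 5.93 ± 1.88 in RISDD, Il1rl1 at 483 ± 275 in SDD and 254 ± 46.2 in RISDD and Ptgs2 at 2748 ± 434 in SDD and 4401 ± 1007 in RISDD did not pass (adjusted p = 0.0571, 0.317 and 0.198). Il6 passed as lower in 11 of 24 alternative runs and Il1rl1 in 2 of 25, and Ptgs2 passed as higher in 5 of 25.

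**Figure D4:**
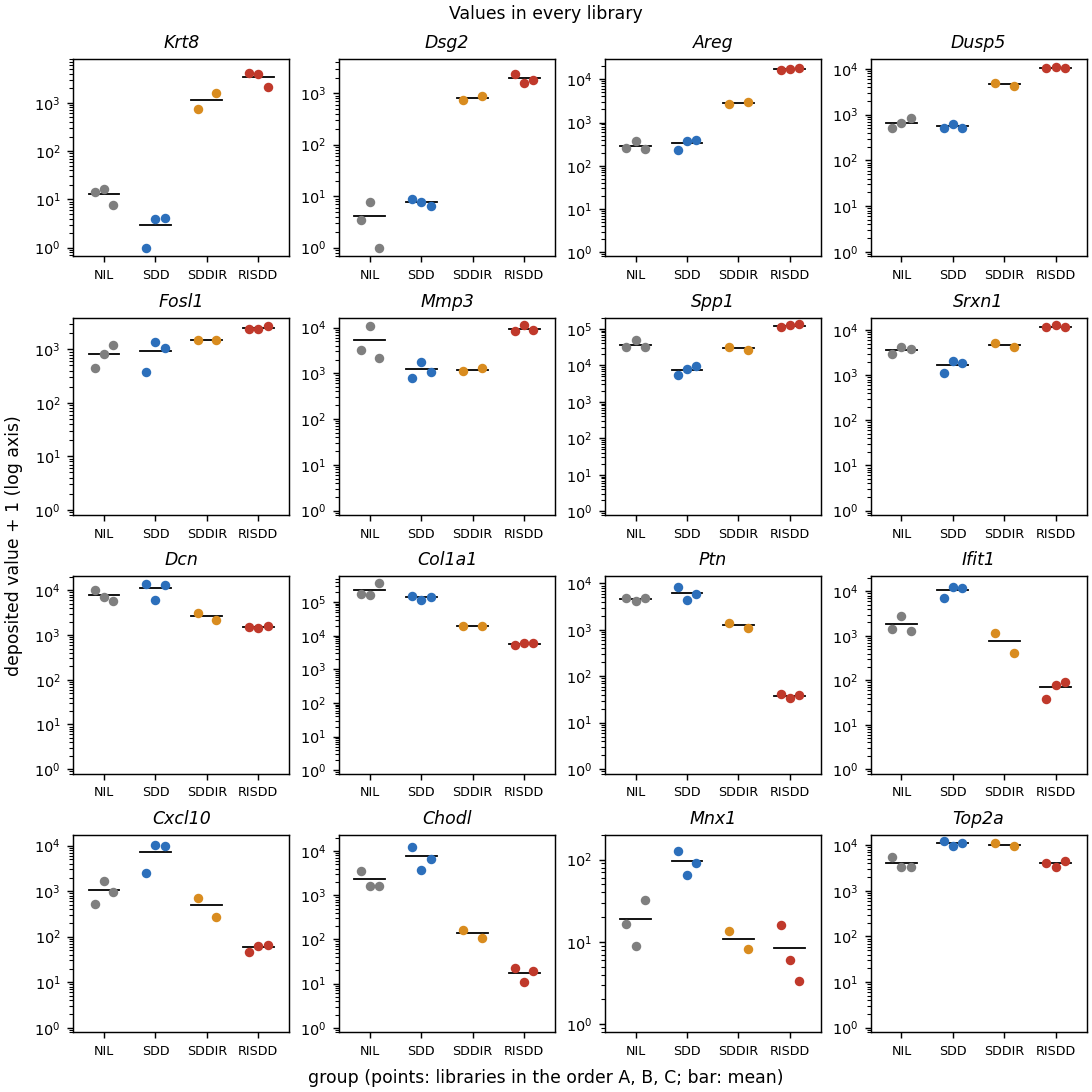
Normalized values plus 1, on a log axis, of 16 genes in each library of NIL, SDD, SDDIR and RISDD. Krt8, Dsg2 and Areg are low in SDD and high in RISDD, while Ptn, Ifit1, Cxcl10 and Chodl are high in SDD and low in RISDD, with the SDDIR libraries between them for these genes (bars are means).

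Both groups carried p53DD, which blocks the p53 response to DNA damage and oncogenes. Of 28 tested, 8 were higher in RISDD and 5 lower, and the 8 higher calls became 16 without NIL C and 14 to 16 under 4 other settings. The arrest gene Cdkn1a, or p21, was at 2346, 4120.3 and 3201 in the SDD libraries and 6426, 6779 and 6574 in the RISDD libraries, and Mdm2, which degrades p53, at 2160.4, 2570.2 and 2416 in the SDD libraries and 6303, 6150.4 and 6811 in the RISDD libraries. Both were higher in every RISDD library than in any SDD library, by 1.07 ± 0.18 (adjusted p = 6.60e-04) and 1.43 ± 0.15 (adjusted p = 3.05e-05). They stood at means of 18484 and 5581 in NIL, which had neither p53DD nor RepSox nor the SNAP sort, and these differences cannot be told apart. Ccng1 was at 4696, 4788 and 4862 in SDD and 12155, 13698 and 11677 in RISDD (1.38 ± 0.29, adjusted p = 0.00331), and Perp, of desmosomes and cell death, rose from 22.3 to 476 (4.42 ± 0.45, adjusted p = 2.48e-05). Fas (-4.01 ± 0.43, adjusted p = 3.74e-05), Plk2 (-1.84 ± 0.13, adjusted p = 2.94e-06) and Ppm1d (-1.21 ± 0.15, adjusted p = 8.85e-05) fell, as did Btg2. All 6 inhibitors of cyclin-dependent kinases passed, 3 in each direction. Cdkn2b (1.76 ± 0.17, adjusted p = 1.76e-05) and Cdkn1c (1.41 ± 0.32, adjusted p = 0.00450) rose. Cdkn2a, which encodes p16 and ARF, was at 1682, 1912 and 1283 in SDD and 3305, 2712 and 2563 in RISDD (0.83 ± 0.24, adjusted p = 0.0176) and did not pass without SDD C or RISDD A (adjusted p up to 0.0762). Cdkn2c (-3.54 ± 0.27, adjusted p = 3.53e-06), Cdkn2d (-1.80 ± 0.33, adjusted p = 0.00128) and Cdkn1b (-1.69 ± 0.24, adjusted p = 2.72e-04) fell.

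Cell division genes were lower in part. Of 32 mitotic genes, 15 were lower and 17 did not pass, with a median of -0.67, and the 15 lower calls became 9 without SDD A or RISDD B and 26 to 27 under 3 other settings. Top2a was at 12198, 9398 and 11432 in SDD and 4180.3, 3383 and 4526 in RISDD, and Mki67, the Ki-67 antigen, at 11146, 9407 and 11253 in SDD and 6258, 4923 and 5912 in RISDD. No RISDD library reached the SDD range of Top2a or Mki67 (-1.45 ± 0.21, adjusted p = 3.01e-04, and -0.90 ± 0.17, adjusted p = 0.00180). Nusap1 (-1.80 ± 0.30, adjusted p = 7.52e-04), Aurkb (-1.55 ± 0.30, adjusted p = 0.00169) and Kif11 (-1.49 ± 0.26, adjusted p = 0.00107) fell. Of 35 replication genes, 14 were lower and 1 higher, and the 14 lower calls became 9 without SDD C or RISDD B and 22 to 23 under 3 other settings. Tk1 (-1.43 ± 0.39, adjusted p = 0.0132), Dscc1 (-1.25 ± 0.30, adjusted p = 0.00679), Mcm6 (-0.98 ± 0.14, adjusted p = 3.22e-04) and Pola1 (-0.96 ± 0.24, adjusted p = 0.00824) fell, and Orc1 rose (0.66 ± 0.15, adjusted p = 0.00513). Among 24 cyclins, kinases and RB or E2F genes, 9 were lower and 5 higher, and the 5 higher calls became 3 without SDD A, SDD C, RISDD A or RISDD B and 8 with GC correction. Ccnb2 (-1.34 ± 0.31, adjusted p = 0.00560), Ccna2 (-1.25 ± 0.19, adjusted p = 3.94e-04), Ccne1 (-1.10 ± 0.14, adjusted p = 1.06e-04) and Rbl2 (-1.08 ± 0.17, adjusted p = 5.27e-04) fell, while E2f8 (1.55 ± 0.12, adjusted p = 5.43e-06), E2f4 (1.11 ± 0.24, adjusted p = 0.00417), E2f5 (1.07 ± 0.16, adjusted p = 4.25e-04) and Cdk6 (0.69 ± 0.25, adjusted p = 0.0461) rose. Cyclin D1, Ccnd1, a known target of ERK, was at 9457, 18827 and 13696 in SDD and 20933, 20143 and 19731 in RISDD and did not pass (0.59 ± 0.23, adjusted p = 0.0594). Ccnd1 passed as higher in 6 of 25 alternative runs. Ccnd2 passed (0.56 ± 0.17, adjusted p = 0.0201) but did not pass without SDD A, SDD C, RISDD A or RISDD B, or with quantile scaling (adjusted p up to 0.0840). Cdk6 did not pass without NIL A, SDD A, SDD C, either SDDIR library or any RISDD library, or with quantile scaling, no filter, a plain moderated variance or edgeR (adjusted p up to 0.170).

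Myc, a driver of growth genes, was at 2946, 4054 and 4367 in SDD and 1658, 1842 and 1811 in RISDD. It was lower in every RISDD library, a difference of -1.08 ± 0.27 (adjusted p = 0.00831). Of 46 genes of the MYC network and ribosome biogenesis, 21 were higher and 3 lower, and the 21 higher calls became 36 without NIL C and 34 to 36 under 4 other settings. Nop2 (1.22 ± 0.25, adjusted p = 0.00250) and Tsr1 (0.99 ± 0.14, adjusted p = 2.59e-04), which process ribosomal RNA, rose, as did the MYC antagonists Mxi1 (1.36 ± 0.15, adjusted p = 4.59e-05) and Mnt (1.11 ± 0.21, adjusted p = 0.00151), while Mycl (-1.29 ± 0.34, adjusted p = 0.0100) and Mxd4 (-1.48 ± 0.18, adjusted p = 9.85e-05) fell. Of 12 genes of the BCL2 family, 3 passed in each direction. The pro-apoptotic Hrk, at 98.1, 85.1 and 81.1 in SDD and 18.6, 25.3 and 27.7 in RISDD (-1.86 ± 0.33, adjusted p = 0.00118), and Bmf (-1.14 ± 0.30, adjusted p = 0.0106) fell, and the list also held Bcl2l1 (1.01 ± 0.15, adjusted p = 3.32e-04), the pro-apoptotic Bcl2l11, or BIM (0.86 ± 0.13, adjusted p = 3.55e-04), Bok (1.21 ± 0.36, adjusted p = 0.0201), Bcl2l2 (-0.35 ± 0.12, adjusted p = 0.0417) and Bcl2, at 232 ± 9.70 in SDD and 248 ± 49.7 in RISDD, which did not pass (adjusted p = 0.838). Bok did not pass without SDD A or any RISDD library (adjusted p up to 0.0774). Bcl2l2 did not pass without NIL A, any SDD library, either SDDIR library or any RISDD library, or with quantile scaling, GC correction, no filter or a replicate block (adjusted p up to 0.178).

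Cholesterol synthesis rose in most of its steps. Its enzymes are switched on by SREBP2 when sterols are low. Of 32 tested genes, 22 were higher and 3 lower, with a median of 1.42. Msmo1, which removes methyl groups from sterols, was at 407, 508 and 485 in the SDD libraries and 3146, 4050 and 3977 in the RISDD libraries, and Sqle, or squalene epoxidase, at 627, 737 and 724 in the SDD libraries and 2507, 2589.8 and 2449 in the RISDD libraries. The RISDD libraries were several times the SDD libraries without overlap, by 2.99 ± 0.32 (adjusted p = 3.30e-05) and 1.86 ± 0.11 (adjusted p = 9.53e-07). Hmgcs1 (1.77 ± 0.15, adjusted p = 7.34e-06), an early enzyme of the path, and the SREBP anchor Insig1 (1.28 ± 0.16, adjusted p = 1.06e-04) rose. The 3 lower genes were Abca1, the cholesterol exporter, at 3048, 1693 and 1492 in SDD and 330.2, 406 and 356 in RISDD (-2.44 ± 0.25, adjusted p = 2.41e-05), Mylip, a ubiquitin ligase (-4.04 ± 0.24, adjusted p = 8.03e-07), and Ebp (-0.93 ± 0.17, adjusted p = 0.00119). The letters TCACNCCAC of a sterol element occurred in 1 of 14 matched promoters of the higher genes and in 1.19% of promoters of all tested genes. That promoter, of Hmgcs1, is shown as the one match, in capitals, 137 bases before the start, at chr13:119690101-119690350 of GRCm38.p6, plus strand.
Hmgcs1: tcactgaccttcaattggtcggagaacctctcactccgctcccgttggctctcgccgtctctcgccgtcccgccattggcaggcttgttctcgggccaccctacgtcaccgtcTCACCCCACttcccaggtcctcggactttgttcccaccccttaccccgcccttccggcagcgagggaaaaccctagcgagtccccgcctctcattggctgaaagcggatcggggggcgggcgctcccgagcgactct

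Fatty acid synthesis moved less, with 5 of 12 higher and 1 lower. Scd1 (1.20 ± 0.16, adjusted p = 1.50e-04), Fasn (0.81 ± 0.22, adjusted p = 0.0127), Fads1 (0.75 ± 0.10, adjusted p = 1.83e-04) and Scd2 (0.58 ± 0.15, adjusted p = 0.0110) rose. Acss2 fell (-0.80 ± 0.29, adjusted p = 0.0468), a call lost without NIL A, any SDD library or any RISDD library, or with quantile scaling, GC correction or no filter (adjusted p up to 0.237). In glycolysis and its hypoxia-related genes, 12 of 30 were higher and 4 lower. The 12 higher calls became 6 without SDD A and 7 without RISDD A or RISDD B, and the 4 lower calls became 2 without SDD A, SDD C, RISDD A, RISDD B or RISDD C and 2 with no filter. The glucose transporter Slc2a1 was at 741, 1318 and 1335 in SDD and 3989, 4493 and 4528 in RISDD, above SDD in every library (1.99 ± 0.26, adjusted p = 1.37e-04). Egln3 (2.15 ± 0.22, adjusted p = 2.47e-05), Pfkp (1.45 ± 0.19, adjusted p = 1.50e-04) and Pfkfb3 (1.12 ± 0.16, adjusted p = 2.56e-04) rose, Adm (-2.54 ± 0.35, adjusted p = 1.91e-04), Pfkm (-0.82 ± 0.18, adjusted p = 0.00440), Pdk1 (-0.56 ± 0.19, adjusted p = 0.0394) and Egln1 (-0.34 ± 0.12, adjusted p = 0.0359) fell, and Hk2 (0.87 ± 0.31, adjusted p = 0.0470) did not pass without NIL B, SDD A, SDD C, either SDDIR library or any RISDD library, or with no filter, a plain moderated variance or edgeR (adjusted p up to 0.179). Lactate dehydrogenase, Ldha, was at 12079 ± 2131 in SDD and 14367 ± 396 in RISDD and did not pass (adjusted p = 0.260). Of 18 genes of the pentose phosphate path and nucleotide synthesis, 4 were higher and 1 lower. The 4 higher calls became 7 without NIL C and 7 under 4 other settings, and the 1 lower call became 3 without NIL C and 2 to 5 under 4 other settings. Tkt (1.67 ± 0.27, adjusted p = 5.53e-04), G6pdx (0.93 ± 0.16, adjusted p = 8.13e-04), Pgd (0.71 ± 0.17, adjusted p = 0.00563) and Gart (0.67 ± 0.15, adjusted p = 0.00375) rose and Ctps1 fell (-0.69 ± 0.13, adjusted p = 0.00153). Egln1 did not pass without any SDD library, either SDDIR library or any RISDD library, or with no filter (adjusted p up to 0.126). Pdk1 did not pass without SDD A, SDD C or any RISDD library, or with quantile scaling, GC correction or no filter (adjusted p up to 0.156).

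Targets of NRF2, the regulator of antioxidant genes, were higher in 10 of 21 cases and lower in 1. The 10 higher calls became 16 with GC correction, and the 1 lower call became 2 without NIL B, 3 without NIL C and 2 to 3 under 5 other settings. Sulfiredoxin, Srxn1, was at 1106, 2119 and 1833 in SDD and 11693, 12842 and 11532 in RISDD, with a wide gap between the groups (2.88 ± 0.23, adjusted p = 5.22e-06). Nqo1 (1.15 ± 0.30, adjusted p = 0.0111) and Gsta4 (1.09 ± 0.32, adjusted p = 0.0177) rose, Cbr3 fell (-1.23 ± 0.24, adjusted p = 0.00214), Slc7a11 (1.40 ± 0.44, adjusted p = 0.0255) did not pass without SDD A, SDD C, RISDD B or RISDD C (adjusted p up to 0.109), and Gclm at 684 ± 68.9 in SDD and 878 ± 68.7 in RISDD and Hmox1 at 1110.3 ± 235 in SDD and 1582 ± 475 in RISDD did not pass (adjusted p = 0.158 and 0.123). Gclm passed as higher in 4 of 25 alternative runs. In the integrated stress response, 3 of 20 were higher and 4 lower, among them Atf4 (0.60 ± 0.10, adjusted p = 9.00e-04), Slc1a5 (1.003 ± 0.26, adjusted p = 0.0101), Vldlr (-1.06 ± 0.12, adjusted p = 6.01e-05), Pycr1 (-1.05 ± 0.20, adjusted p = 0.00157), Atf5 (-0.999 ± 0.23, adjusted p = 0.00507) and Psat1 (-0.67 ± 0.12, adjusted p = 0.00123). Trib3 (0.69 ± 0.20, adjusted p = 0.0191) did not pass without SDD A or RISDD B (adjusted p up to 0.0845), and Asns at 3302 ± 587 in SDD and 3841 ± 414 in RISDD did not pass (adjusted p = 0.378). The 3 higher calls became 5 without NIL C and 5 under 3 other settings, and the 4 lower calls became 8 with array weights. Gsta4 did not pass without SDD A, SDD C, RISDD B or RISDD C (adjusted p up to 0.0725).

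Lists of general cell upkeep had fewer calls than the genome-wide 42.6%. They were 2 higher of 43 ribosomal proteins, 1 higher and 3 lower of 31 nuclear respiratory genes, 3 lower of 15 chaperones of the endoplasmic reticulum, and 3 higher of 11 heat shock genes. None of the 13 mitochondrially encoded genes passed with limma, with a median of 0.37. At an unadjusted p under 0.05 there were 0, with edgeR 0 and with DESeq2 0. With limma, 8 were higher without NIL C and 2 to 8 under 4 other settings. Among the ribosomal proteins, the 2 higher calls became 1 without SDD A, SDD B, SDD C, SDDIR A, SDDIR B, RISDD A, RISDD B or RISDD C, 12 without NIL C and 1 to 15 under 9 other settings. Among the respiratory genes, the 3 lower calls became 1 without SDD A, RISDD B or RISDD C, 8 without NIL C and 7 to 8 under 3 other settings, and the 1 higher call became 4 without NIL C and 2 to 5 under 5 other settings. For the reticulum chaperones, the 3 lower calls became 0 without RISDD C and 1 without SDD A, SDD C or RISDD A. Higher calls appeared in that list without NIL C (3) and under 4 other settings (3 to 5). For the heat shock genes, the 3 higher calls became 1 without SDD A, SDD B, RISDD A or RISDD B, 5 without NIL C and 1 to 8 under 5 other settings. Hsp90aa1 of the heat shock list rose (0.81 ± 0.24, adjusted p = 0.0210). Hsp90aa1 did not pass without SDD A, SDD B or any RISDD library (adjusted p up to 0.0763).

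**Figure D5:**
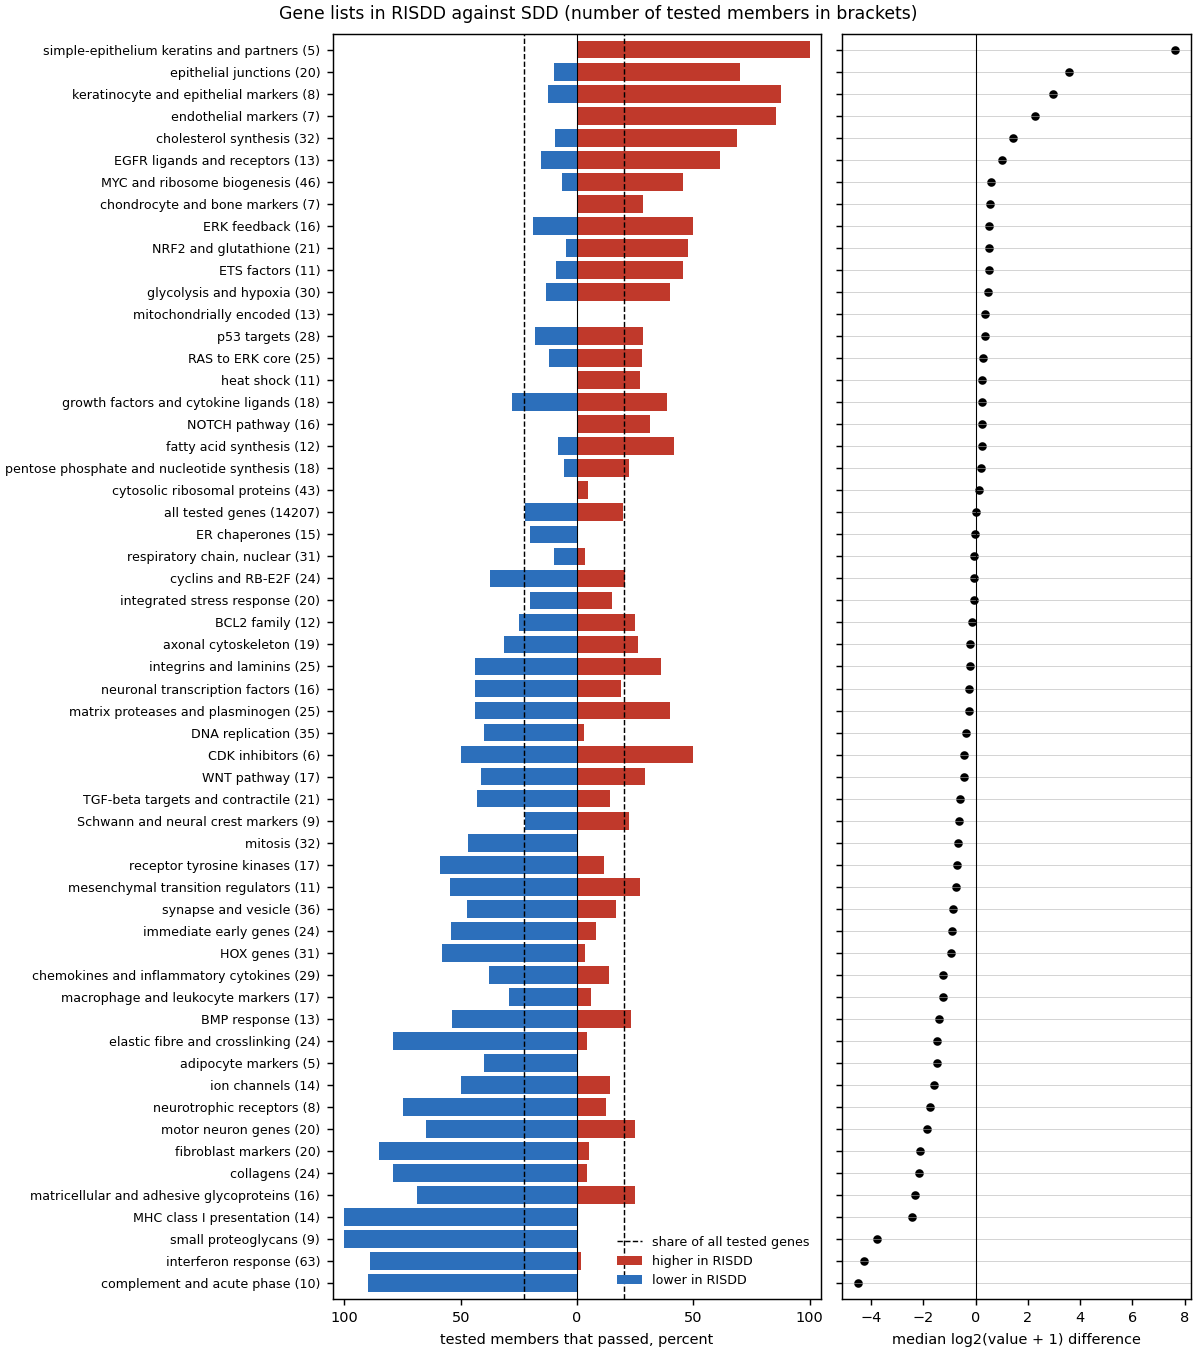
Share of tested members higher (to the right) and lower (to the left) in RISDD than in SDD for each gene list, and the median log2 difference of each list, with dashed lines at the shares over all tested genes. Interferon, MHC class I and proteoglycan genes lie almost wholly on the lower side, and keratins, junctions and cholesterol synthesis mostly on the higher side.

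Markers of other cell types that a fibroblast culture can hold were read from further lists, and their part in the results was not tested. These lists share genes with those above, such as Krt8, Krt18, Cdh1 and Dsp, so they are not independent of them. Of 12 keratinocyte and epithelial markers, 8 were tested, with 7 higher and 1 lower (4 and 1 of the 5 whose testing did not rest on RISDD alone), and their sum was 120.4 to 139 in SDD and 8843 to 12850 in RISDD. Krt8 and Krt18 made up most of the sum in RISDD. The minimum was reached only through SDD by 1 of the 8, and among the other 7, 7 were higher and 0 lower. Krt14, the basal keratinocyte keratin, had no reads in either group, Krt15, Cdh1 and Ovol1 had none in SDD, and Trp63, the basal epidermal factor, went from 21.1 to 0.825. Sfn rose by 1.97 ± 0.39 (adjusted p = 0.00221). Endothelial markers were higher in 6 of 7 tested cases (2 of them tested only through RISDD), with sums of 1578 to 2382 and 8246 to 9380, and the 6 higher calls became 3 with a minimum value of 50. Flt1, a VEGF receptor, made up most of that sum, at 1508, 1413 and 2210.4 in SDD and 8576, 7441 and 8349 in RISDD (2.27 ± 0.18, adjusted p = 5.03e-06), and VE-cadherin, Cdh5, was at 34.95, 56.1 and 72.5 in SDD and 539, 419 and 419 in RISDD (3.10 ± 0.37, adjusted p = 7.01e-05). Emcn was at 0 in both groups and Erg in RISDD. Macrophage and leukocyte markers had sums of 954 to 2408 in SDD and 1049 to 2107 in RISDD, with Adgre1 (-3.13 ± 0.62, adjusted p = 0.00215) and C1qb (-2.75 ± 0.96, adjusted p = 0.0406) lower, Aif1 at 0 in RISDD, and the lysosomal Cd68 higher (2.83 ± 0.40, adjusted p = 2.34e-04). The 5 lower calls became 2 without SDD B, SDD C, RISDD A or RISDD C, and the 1 higher call became 2 without SDDIR A or SDDIR B and 2 under 5 other settings. Muscle markers had sums of 1095 to 2414 and 5891 to 6164, most of it the acetylcholine receptor subunit Chrna1 (1.93 ± 0.26, adjusted p = 1.77e-04), with Myog at 0 in RISDD. Bone and cartilage markers summed to 942 to 1232 and 2127 to 2654, with Dmp1 (4.92 ± 0.74, adjusted p = 3.77e-04) and Runx2 (1.27 ± 0.16, adjusted p = 9.20e-05) higher and Matn1 and Ibsp at 0 in both groups. Schwann cell and neural crest markers summed to 152 to 277 and 418 to 511, with 2 of 9 tested higher and 2 lower and a median of -0.63. The minimum was reached only through SDD by 1 of the 9, and among the other 8, 2 were higher and 1 lower. Mbp (3.68 ± 0.29, adjusted p = 5.43e-06) and Erbb3 were higher, and Ngfr (-1.81 ± 0.39, adjusted p = 0.00357) and Cdh19, at 18.04, 15.5 and 4.30 in SDD and 0, 1.01 and 0.79 in RISDD, lower. The call of Cdh19 was lost without SDD A, SDD B or RISDD A, or with pseudocount 10 (adjusted p up to 0.122). Adipocyte markers summed to 1325 to 2029 and 325 to 513, with Lpl (-2.67 ± 0.23, adjusted p = 9.17e-06) and Fabp4 (-1.49 ± 0.42, adjusted p = 0.0158) lower and Adipoq at 0 in RISDD. Erythroid markers summed to at most 8.09 in any of these 6 libraries. C1qb did not pass without NIL C, SDD B, SDD C, RISDD A or RISDD C, or with quantile scaling, a plain moderated variance or NIL group left out of the fit (adjusted p up to 0.139). Fabp4 did not pass without RISDD A, or with GC correction (adjusted p up to 0.0588).

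SDDIR, with HRAS(G12V) behind the IRES, gives a reading of the same elements in the other order, over 2 libraries. The heading of the second stands on a pair of identical columns, used once here, and which of the SDDIR samples it holds cannot be told from the table. RISDD was higher than SDDIR in 659 genes (4.64%) and lower in 718 (5.05%). Krt20 was at 0 in both SDDIR libraries, at 0 in SDD and at 183, 211 and 193 in RISDD. Other large rises were present in SDDIR too. Krt8 was at 759 and 1560 there and Dsg2 at 727 and 881, and neither passed against RISDD (adjusted p = 0.149 and 0.281). Of 5 tested keratins, 3 were higher in RISDD than in SDDIR, and of 20 junction genes, 7. Of 32 cholesterol synthesis genes, 1 was higher and 1 lower. Mmp10 was at 33.9 and 36.8 in SDDIR and Klk7 at 19.5 and 5.93 in SDDIR, far below RISDD. Their differences of RISDD minus SDDIR were 4.63 ± 0.80 (adjusted p = 0.00640) and 5.58 ± 0.81 (adjusted p = 0.00264), and the call of Mmp10 was lost without SDDIR A or SDDIR B (adjusted p up to 0.0734). Ptn was at 1389.8 and 1101 in SDDIR, Kera at 136 and 77.1 in SDDIR and Serpina3n at 232 and 155 in SDDIR. For these 3 falling genes SDDIR lay between SDD and RISDD, and the differences of RISDD minus SDDIR were -5.02 ± 0.24 (adjusted p = 1.10e-05), -4.60 ± 0.64 (adjusted p = 0.00233) and -4.08 ± 0.33 (adjusted p = 2.33e-04). In the interferon list, 31 of 63 members were lower in RISDD than in SDDIR and 1 higher, with Ifit1 at 1129.8 and 419.7 in SDDIR. In the mitosis list, 15 of 32 were lower in RISDD, with Top2a at 11029 and 9519.9 in SDDIR in a range close to SDD. Dusp5 was at 4939 and 4185 in SDDIR and Dusp4 at 6587 and 6697 in SDDIR, and the difference passed for Dusp5 (1.21 ± 0.19, adjusted p = 0.00425) and not for Dusp4 (-0.18 ± 0.21, adjusted p = 0.697), and that of Dusp5 was lost without SDDIR B (adjusted p = 0.0535). Without SDDIR A the counts fell to 120 higher and 188 lower, and without SDDIR B to 218 and 228, where the lone library is assumed to vary like the other groups.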

How the data were processed

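RNA was sequenced from polyA-selected pools of sorted mouse cells in 4 groups, and 11 libraries were used, 3 each of NIL, SDD and RISDD and 2 of SDDIR. The authors deposited a table of normalized counts for 23077 genes, a signal in which each library's read counts were divided by 1 constant. All values are whole multiples of a step per library within 0.001 of a read. Per the submitters' processing notes, reads were handled with Trim Galore 0.6.10 and Salmon 1.10.3, and the build GRCm39 is named. Salmon estimates how reads split among similar transcripts, so close copies are uncertain. 1 column repeats the heading and values of another and was not used.

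Values were taken as log2(value + 1). The 14207 genes that reached 10 in 3 or more libraries were tested with limma 3.58.1 in R 4.3.3, with a trended and robust variance over all 4 groups, and p-values were adjusted by Benjamini and Hochberg over all tested genes, with 0.05 as the threshold. The deposited scaling was kept, so folds are relative to it, and low genes have understated folds. Alternatives were other scalings, a GC correction, pseudocounts of 0.5 and 10, no minimum and a minimum of 50, other variance settings and fits, each library left out, the replicate letter as a block, and edgeR 4.0.16 and DESeq2 1.42.0 on the recovered reads. The scripts were tested on simulated data with far fewer changed genes and the same spread in every group. That checks the code and not the choice of scaling or of a shared spread. Named genes were the 15 largest rises and falls that passed with no overlap and a group mean of 100 or more, without predicted genes and pseudogenes, the key genes of each list, and up to 4 per direction in each list. Rasgrp3, Hrk, Bmf, Erbb3, Ngfr, Cdh19 and Ifit3b lie outside it and were chosen after their values were seen. Members and lists were chosen with earlier results of these data known. Promoters are RefSeq sequences of GRCm38.p6. A floor of 3 reads per library was used for genes without reads. Such bounds cover counting error only. Some genes are not reported here.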

Additional observations from a re-analysis of the deposited data

How the results depend on the processing

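RISDD against SDD gave 6046 changed genes. The number was 8069 (4696 higher and 3373 lower) with a correction for GC content, 9781 (4933 higher and 4848 lower) with array weights, 8969 (4530 higher and 4439 lower) with only these groups fitted and 9033 (4564 higher and 4469 lower) without the NIL group. It was between 5448 and 6670 under the other scalings, pseudocounts, filters, variance settings and count tests, edgeR giving 6067 and DESeq2 6670. Leaving out 1 library at a time gave 4804 to 8983 changed genes, 2136 to 4550 higher, 2642 to 4433 lower and 3204 to 3891 changed by at least 2-fold. The highest count came without NIL C, whose distance from the other NIL libraries enters the shared spread.

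RISDD against SDDIR gave 1377 changed genes. The number was 2816 (1379 higher and 1437 lower) with GC correction, 5346 (2718 higher and 2628 lower) with array weights, of which 1560 by at least 2-fold, 4173 (2114 higher and 2059 lower) without NIL and 2258 (1092 higher and 1166 lower) with DESeq2. Leaving out 1 library at a time gave 308 to 4182 changed, 120 to 2116 higher, 188 to 2066 lower and 293 to 1339 by at least 2-fold. The cause of these shifts was not tested.

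With the replicate letter as a block, 6301 genes changed against SDD and 1440 against SDDIR. The letters share only a name: same-letter SDD and RISDD libraries had correlations of their deviations of 0.175 (A), 0.133 (B) and 0.0656 (C), each library correlating best with its own letter, a hint from the data and not the design. Of 368 genes named for RISDD against SDD, 343 passed, 307 of them under every alternative run, 36 lost the call in at least 1, 20 of the 25 others passed in at least 1, and no passing gene reversed. Of 145 that passed against SDDIR, 40 did so under every alternative and 105 lost the call in at least 1, with no reversal. For RISDD against SDD, a pseudocount of 10 changed the fold of 63 passing named genes by more than 1.5-fold, all of them toward no change. With 3 libraries per group, genes with few reads give wide errors, and a p that misses the threshold does not show equality.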

Other observations

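Genes of the HOX clusters, which record a cell's position along the body and limb axes, were lower in RISDD more often than not. Of 31 tested, 18 were lower and 1 higher, with a median of -0.94, against 22.6% lower and 20.0% higher over all genes. Hoxc8 was at 352, 271 and 391 in SDD and 90.3, 97.1 and 86.2 in RISDD (-1.86 ± 0.21, adjusted p = 5.32e-05) and Hoxc6 at 648, 569.5 and 707 in SDD and 207, 162 and 163 in RISDD (-1.86 ± 0.16, adjusted p = 9.34e-06), with no overlap between the groups for either. The distal limb genes Hoxd13 (-1.68 ± 0.23, adjusted p = 1.72e-04) and Hoxa13 (-1.63 ± 0.41, adjusted p = 0.00891) fell with them by limma, while Hoxa9, the 1 that rose, was at 77.8, 128 and 122 in SDD and 195, 185 and 262 in RISDD (0.98 ± 0.23, adjusted p = 0.00645).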
